A study of Homo sapiens with 9 samples.

Results

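The comparison set Y79 cells that received gold nanoparticles carrying an HDM2 peptide (GNPs-HDM2) against Y79 cells that received the same kind of particle without peptide (GNPs). Members were taken by title, which gave 6 of the 9 arrays of the series, 3 in each of the 2 groups, and all 18132 genes with at least 1 probe set of a single gene symbol. The other 3 arrays held untreated Y79 cells and are given only as values beside the comparison. Y79 is an established human retinoblastoma cell line without functional RB1, grown here in RPMI medium. The source labels of the treated arrays write Y97, and their cell line field writes Y79. Total RNA was biotin-labelled for Affymetrix PrimeView arrays. The sources used here do not give dose, time, particle size or the culture behind each array. Replicates may thus be technical, and p-values then reflect array-to-array spread alone.

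HDM2, the product of MDM2, is a ubiquitin ligase that binds the activation domain of p53, blocks its activity as a transcription factor and marks it for destruction. Peptides that fill the p53 pocket of HDM2 are meant to release p53, whose targets include the cell cycle inhibitor CDKN1A, MDM2 itself and several BCL2 family genes. The study's title names such a peptide on a gold carrier, and the comparison asks what the peptide conjugate adds to the particle.

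Inducible heat shock genes were higher in the conjugate arrays, with HSPA6 the largest rise, and genes of mitosis were lower, 3 of them among the 10 largest falls. NF-kB targets and immediate early genes were higher for the most part, while NRF2 targets and amino acid stress genes were lower. Many abundant housekeeping transcripts were lower as deposited, as were probe sets with a bright signal in general. Ribosomal protein genes turned to higher after centring within brightness classes, but not after quantile normalization. MDM2, MDM4 and CDKN1A did not pass the test on the values as deposited. The values are log2 differences from a baseline of each probe set, so they carry no absolute level, and base 2 is taken from the range of the values. An error after a difference is its standard error, and a gene is called at a Benjamini-Hochberg adjusted p below 0.05 over all genes in limma.

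The arrays of the 2 groups stood apart over most of the genome. Of the 18132 genes, 11595 (63.9%) were called, 6701 (37.0%) higher and 4894 (27.0%) lower in conjugate arrays, and 2718 and 3611 of these differed at least 2-fold. In 8326 genes (45.9%) the 3 conjugate values lay above the 3 bare values, and in 5525 (30.5%) they lay below. The median difference over all genes was 0.30. A share of calls this high is the background against which every gene group below has to be read.

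The direction of a difference moved with how bright a probe set was. Stored digits of the values left a trace of each baseline, which put probe sets into dim, middle and bright classes. Over 16299 dim probe sets the array medians were 0.56, 0.73 and 0.19 with the conjugate and -0.07 on each bare array. Over 8314 bright ones they were -1.44, -1.96 and -0.36 against 0.11, 0.09 and 0.09, and over 24579 middle ones the 2 groups differed by 0.09. Of the dim probe sets 5841 were called higher and 222 lower, and of the bright ones 360 higher and 5421 lower, beside 28.4% higher and 25.7% lower over all probe sets. The conjugate arrays therefore had a compressed range, and replicate 3 was the least compressed.

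**Figure D1:**
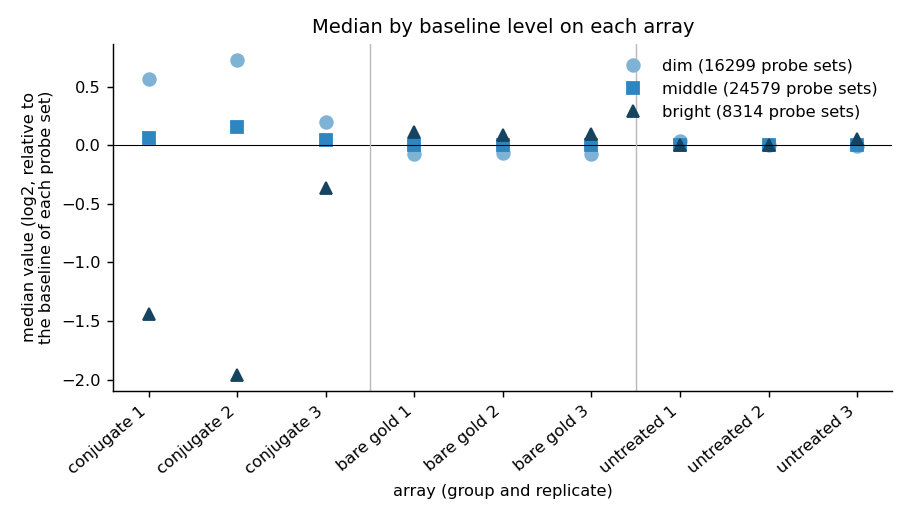
Median value of dim, middle and bright probe sets (log2, relative to each probe set's baseline) on each of the 9 arrays. The 3 classes lie within 0.2 of each other on the bare and untreated arrays and spread from -1.96 to 0.73 on conjugate array 2.

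Array controls also differed between the groups. Spiked hybridization controls were 1.80 higher on conjugate arrays, spiked poly-A controls 1.34 higher and background and tag probe sets 0.61 and 0.83 higher. The 2 ribosomal RNA controls went opposite ways, 18S at -2.51 and 28S at 0.74. The 3 prime minus 5 prime signal, a sign of RNA or labelling quality, was 0.39 higher for actin and 0.61 higher for GAPDH. In these 8 controls no conjugate array overlapped a bare array (exact 2-sided permutation p = 0.1, the lowest that 3 against 3 can give). Their part in the gene results was not tested. Because the shift follows brightness, each gene group is given both as deposited and with every array centred on the median of each brightness class. Single genes are given as deposited unless centring is named. Centring takes 0.57 from the difference of a dim probe set, 0.09 from a middle one and adds 1.35 to a bright one. The 101 probe sets without a class were centred on the median of the whole array, which takes 0.17 and corrects for no brightness. They include all those of HSPA6, HSPA1B, HSPB1, MT1X, PIR, NQO1 and DDIT3. The centred fit called 4838 genes higher (26.7%) and 4462 lower (24.6%), with a median of 0.09 over all genes. Both fits called 4088 genes higher and 3867 lower, and 37 genes were called in opposite directions.

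The 3 conjugate replicates were compared through differences that share no array, each conjugate array minus the bare array of the same number. Across 18132 genes these correlated at r = 0.935 for pairs 1 and 2, 0.839 for pairs 1 and 3 and 0.815 for pairs 2 and 3 (genes are not independent replicates, and all pairs share the brightness shift). After centring within brightness classes r was 0.900, 0.818 and 0.797. The sizes differed as deposited. The SD over all genes of the difference from the bare mean was 1.23, 1.43 and 0.701 in replicates 1, 2 and 3. Conjugate arrays also varied more among themselves (median SD 0.396 over genes) than bare arrays (0.0892). Both statements rest on the scaling. After quantile normalization the SDs were 1.01, 1.01 and 0.993, and the conjugate arrays varied less (0.182) than the bare arrays (0.240). Replicate 3 set alone against the 3 bare arrays gave 7112 genes higher and 5050 lower, in a comparison added after the data were seen that assumes the lone array to vary like them.

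**Figure D2:**
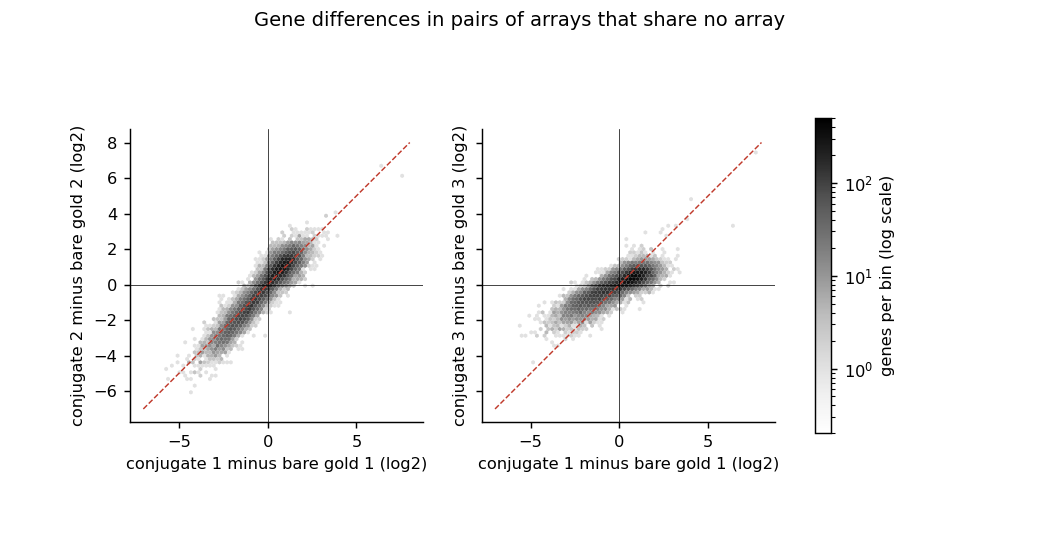
Gene differences (log2) in conjugate and bare pair 1 against pair 2 (left) and pair 3 (right), shaded by genes per bin on a log scale, with the dashed line marking equal size. Points follow the line against pair 2 (r = 0.935) and lie flatter than it against pair 3 (r = 0.839), where differences are smaller.

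The count of calls was sensitive to single arrays. Leaving out conjugate replicate 1 left 6868 calls. Leaving out bare replicate 1, 2 or 3 left 5682, 5820 or 5701. With conjugate replicate 3 left out the count was 14992.

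Some calls of single genes named below were also lost when 1 array was left out (limma adjusted p in brackets). Without any 1 of the bare arrays the call was lost for MCL1 (0.0712 to 0.0762), MCM5 (0.0555 to 0.0602), MT1M (0.0573 to 0.0725), NDRG1 (0.103 to 0.123), RBL1 (0.0553 to 0.0732), TARBP2 (0.0510 to 0.0743) and XRCC1 (0.0630 to 0.0926). It was lost without any 1 bare array or without conjugate replicate 1 for NFKB1 (0.0542 to 0.0733) and SREBF2 (0.0714 to 0.120). It was lost without any 1 array other than conjugate replicate 3 for BCL2L2 (0.0576 to 0.106), IER2 (0.0758 to 0.111), LIN28A (0.0938 to 0.121), RPL19 (0.0717 to 0.0995) and RPS14 (0.0729 to 0.0997). HMOX1 lost it without conjugate replicate 1 or 3 or bare replicate 2 or 3 (0.0567 to 0.0960). CTSD lost it without bare replicate 1 or 2 (0.0592 and 0.0605), MVK without bare replicate 1 or 3 (0.0548 and 0.0502), PLK3 without bare replicate 2 (0.0535), SCARB1 without bare replicate 3 (0.0509), TTR without bare replicate 1 (0.0541) and ENDOG without conjugate replicate 1 (0.0502).

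The p53 axis came first because the peptide addresses it. MDM2, the gene of HDM2 and a p53 target, read -0.58, -0.45 and -0.26 with the conjugate and -0.28, -0.24 and -0.20 with the bare particle. Its difference of -0.19 (SE 0.17, n = 3 arrays per group, limma adjusted p = 0.329) did not pass. After quantile normalization the gene was called higher at 0.43 (limma adjusted p = 0.0339). Its 11 probe sets disagreed. In 3 middle probe sets the signal fell by 1.69, 1.50 and 2.19 (limma adjusted p over all probe sets 0.00939, 0.0194 and 0.00311). In 2 other middle ones it rose by 0.62 and 1.01 (adjusted p 0.0390 and 0.0117), and 6 were not called. The gene mean therefore joins transcripts or probes that moved in opposite directions.

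MDM4, the relative of HDM2 that inhibits p53, read -0.52, -0.86 and 0.32 against -0.26, -0.22 and -0.15, a difference of -0.14 (SE 0.30, limma adjusted p = 0.673). Without conjugate replicate 3 it was called lower at -0.48 (limma adjusted p = 0.0165). CDKN1A, the p21 inhibitor of cyclin-dependent kinases, read -0.13, -0.53 and 0.40 against -0.08, -0.02 and -0.13, a difference of -0.01 (SE 0.25, limma adjusted p = 0.972). In both genes replicate 3 lay above all bare arrays and replicates 1 and 2 below them. Both are mostly or wholly bright, and relative to other bright probe sets they were higher, MDM4 by 0.73 (adjusted p = 0.00414) and CDKN1A by 1.34 (adjusted p = 0.00232). After quantile normalization neither was called, with MDM4 at 0.52 (limma adjusted p = 0.0716) and CDKN1A at 0.14 (limma adjusted p = 0.573). In untreated cells CDKN1A read 1.46, 1.04 and -0.11.

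**Figure D3:**
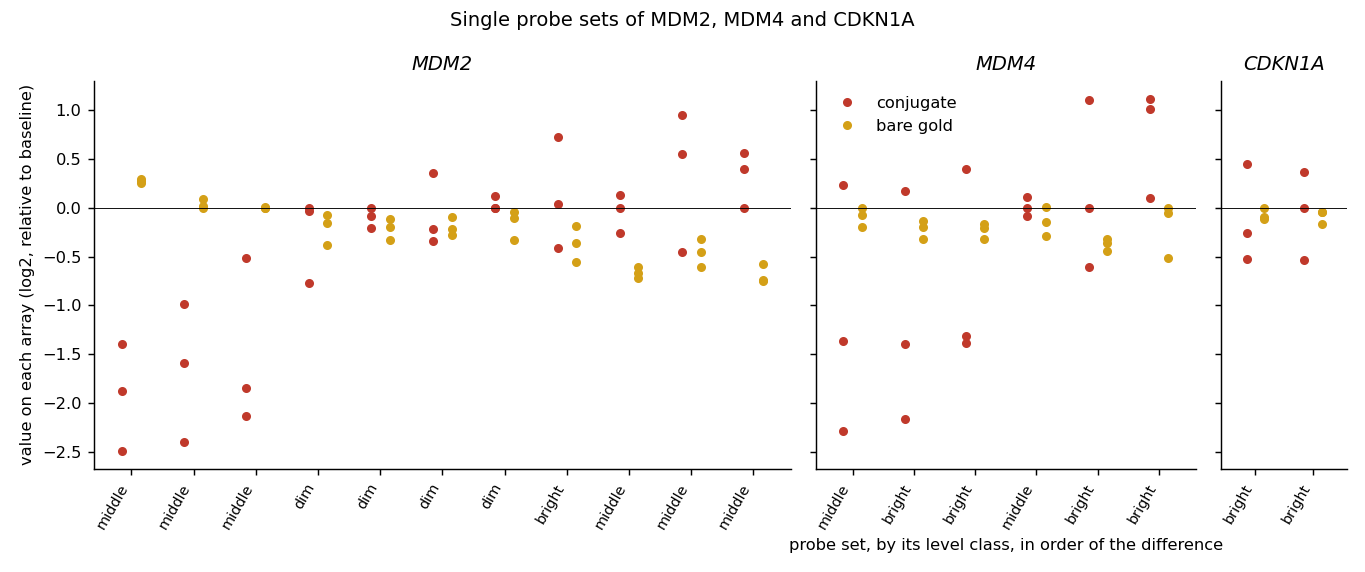
Values (log2, relative to baseline) of each probe set of MDM2, MDM4 and CDKN1A on the 3 conjugate and 3 bare arrays, ordered by the difference and marked with the brightness class. The 3 leftmost MDM2 probe sets lie lower on every conjugate array, the rightmost one higher, and the CDKN1A probe sets overlap.

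Among 30 p53 targets, 5 were called higher and 10 lower, beside 37.0% and 27.0% of all genes. Their median was -0.48, beside 0.30 over all genes. Of the 30, 22 have a bright probe set, the class that was lower as a whole. After centring the counts were 6 and 8, beside 26.7% and 24.6% of all genes, and the median was 0.00. Called higher were PHLDA3, which restrains AKT, and PLK3, a stress kinase. PHLDA3 read 0.86, 0.66 and 0.14 against -0.44, -0.48 and -0.44 (difference 1.01, SE 0.22, adjusted p = 0.00946). PLK3 rose by 0.81 (SE 0.18, adjusted p = 0.0104). The antioxidant gene SESN2 fell by 1.40 (SE 0.18, adjusted p = 0.00306) and the translesion polymerase gene POLH by 1.04 (SE 0.17, adjusted p = 0.00536). After centring SESN2 stood at -0.05 and was not called, while POLH stayed called at -1.13. The classical apoptotic targets BAX at -0.57 and BBC3 at -0.43 were not called in either fit, and PMAIP1 fell by 2.01. Without conjugate replicate 3 the counts were 6 higher and 19 lower, without conjugate replicate 1 or 2 they were 4 and 6 or 3 and 9, and without bare replicate 1, 2 or 3 they were 2 and 8, 2 and 7 or 2 and 7. Replicate 3 alone gave 9 and 10. The targets thus did not move one way, and neither did genes in general. MDM2, CDKN1A, BAX and BBC3 were all among those uncalled as deposited.

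Of 22 genes that regulate p53 or HDM2, none was called higher and 15 were lower, with a median of -1.09, and after centring 4 were higher and 14 lower. Without bare replicate 1, 2 or 3 the count lower was 10, 10 or 12. EP300, an acetyltransferase that works with p53, read -2.16, -2.75 and -1.44 against 0.23, 0.14 and 0.27 (difference -2.33, SE 0.32, adjusted p = 0.00356). YY1, a factor that helps HDM2 bind p53, fell by 1.65 (SE 0.20, adjusted p = 0.00269). The checkpoint kinase genes CHEK1, ATR and ATM fell by 2.47, 1.97 and 1.13, and each stayed called after centring. The ribosomal genes RPL5 and RPL11, whose proteins can bind HDM2, were not called as deposited.

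Apoptosis genes moved in both directions, as genes in general did. Of 18 pro-apoptotic genes 7 were higher and 4 lower (9 and 2 after centring), with a median of 0.23. As deposited this is close to all genes, with 37.0% higher, 27.0% lower and a median of 0.30. The counts were 4 and 1 without conjugate replicate 1, without conjugate replicate 3 they were 7 and 6, and without bare replicate 1, 2 or 3 they were 4 and 2, 3 and 2 or 5 and 2. HRK, a BH3-only gene, read 0.12, 0.39 and 0.14 against -0.93, -0.91 and -0.84 (difference 1.11, SE 0.17, adjusted p = 0.00423). CASP8, the initiator caspase of death receptors, rose by 0.93 (SE 0.16, adjusted p = 0.00579), and BMF and APAF1 rose by 1.27 and 1.03. CASP6, an executioner caspase, fell by 2.37 (SE 0.45, adjusted p = 0.00707), and ENDOG, a mitochondrial nuclease, by 1.55 (SE 0.36, adjusted p = 0.0117). Among 9 anti-apoptotic genes 2 were higher and 3 lower (1 and 2 after centring), and without any 1 bare array 1 and 1. Without conjugate replicate 1, 2 or 3 they were 1 and 2, 1 and 3 or 3 and 4. BIRC2 fell by 1.04. MCL1 fell by 0.60 as deposited, with 2 probe sets called higher and 3 lower, and was not called after centring (-0.05, adjusted p = 0.785) or after quantile normalization (-0.07, adjusted p = 0.706). BCL2L2 was called higher at 0.70 and not after centring (0.30, adjusted p = 0.145), and its single middle probe set alone gave -0.98.

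The heat shock response is run by HSF1, which induces chaperones that refold proteins. Of 16 heat shock and chaperone genes 8 were higher and 2 lower, with a median of 0.51, and after centring 13 were higher and 2 lower, with a median of 1.30. Of these, HSPA6, HSPA1B and HSPB1 have no brightness class, so their centred values carry no brightness correction. HSPA6, an inducible HSP70 that is nearly silent without stress, had the largest rise of all genes called with the groups apart. It read 0.86, 0.00 and 1.50 with the conjugate and -6.76, -6.07 and -5.88 with the bare particle, a difference of 7.03 (SE 0.40, 130-fold, adjusted p = 0.000884). HSPA1B, the major inducible HSP70, read 0.00, -0.93 and 0.92 against -3.97, -3.63 and -3.83 (difference 3.80, SE 0.43, adjusted p = 0.00226). HSPA6 and HSPA1B have near-identical copies, so their probe sets may read those too. SERPINH1, the collagen chaperone HSP47, read 0.63, 0.49 and 0.16 against -3.22, -3.50 and -3.55 (difference 3.85, SE 0.20, adjusted p = 0.000747). BAG3, an HSP70 cochaperone, rose by 3.13 (SE 0.22, adjusted p = 0.00112). DNAJB1, HSPB1, HSPH1 and HSP90AA1 rose by 2.33, 2.08, 1.47 and 0.79. No conjugate array overlapped a bare one in any of these 8 genes, as in 45.9% of all genes on the higher side. This adds little to the calls. On each conjugate array 99.3% to 100% of all genes called higher lay above the bare arrays. Without conjugate replicate 3, 8 were higher and 5 lower.

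The exceptions were the HSP110 relatives HSPA4L, which fell by 2.03 (SE 0.26, adjusted p = 0.0028), and HSPA4, which fell by 1.52 (SE 0.34, adjusted p = 0.0102). The mitochondrial chaperonin genes HSPD1 at -0.38 and HSPE1 at -0.13 were not called as deposited. Untreated arrays differed here. HSPA6 read -0.84, -0.82 and -6.37 and HSPA1B -1.46, -1.40 and -3.83. Untreated array 3 thus lay among or near the bare arrays, while untreated arrays 1 and 2 lay between the groups and nearer the conjugate mean. BAG3 did the same at -0.68, -0.45 and -3.20. As the untreated arrays split, they do not show for these 3 genes which group departs from untreated cells.

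The promoters of 3 of these risen genes are shown because they hold the heat shock element, the DNA motif that HSF1 binds. The search took the blocks GAA, TTC and GAA with 2 bases of any kind between neighbours, on either strand, in the 250 bases before each start of the RefSeq table (GRCh38.p14). Capitals mark the match, and each stretch runs 5' to 3' on the gene's strand.
HSPA6, chr1:161524451-161524493, plus strand: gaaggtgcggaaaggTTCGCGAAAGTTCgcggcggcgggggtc
SERPINH1, chr11:75562162-75562204, plus strand: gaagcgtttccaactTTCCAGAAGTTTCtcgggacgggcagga
HSP90AA1, chr14:102087105-102087147, minus strand: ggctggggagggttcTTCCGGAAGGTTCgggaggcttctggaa
The match ended 61, 63 and 75 bases before the start in HSPA6, SERPINH1 and HSP90AA1. It occurred in 7 of the 16 listed genes and in 74 of 14425 measured genes with a window (0.513%). Of the 8 listed genes called higher 3 held it, and of the 6 not called 4 did, namely HSPA8, HSP90AB1, HSPD1 and CHORDC1. A match describes the letters in the window and does not show binding.

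**Figure D4:**
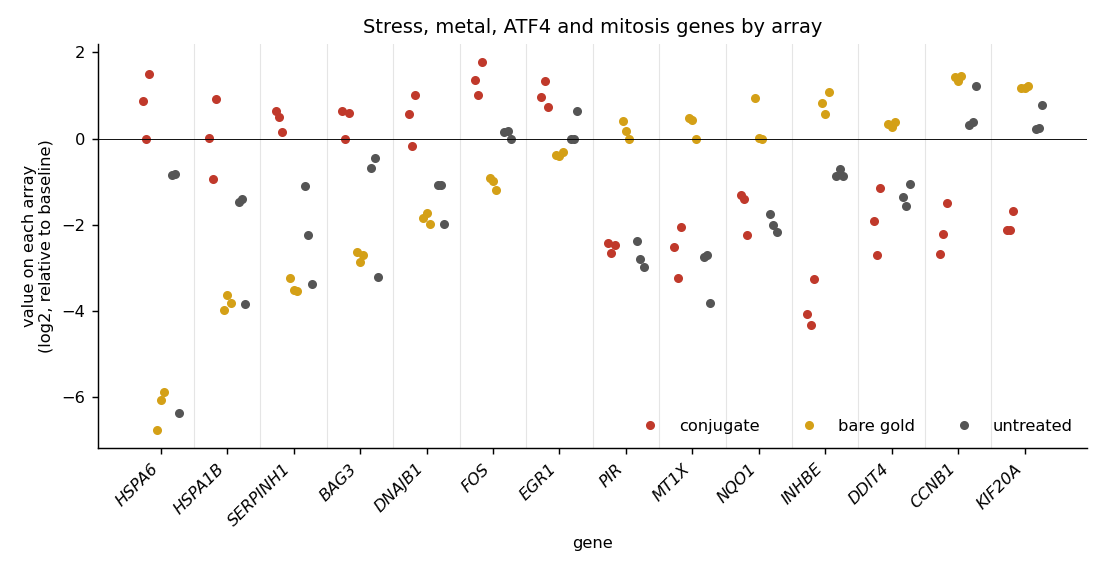
Value (log2, relative to baseline) of 14 genes on the 3 conjugate, 3 bare and 3 untreated arrays, 1 point per array. Heat shock genes on the left are high with the conjugate and low with the bare particle, PIR, MT1X and NQO1 are low with the conjugate and in untreated cells, and CCNB1 and KIF20A are low with the conjugate alone.

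Immediate early genes, which code for transcription factors switched on within minutes by growth factors and stress, were also higher. Of 14 measured, 10 were called higher and 1 lower, with a median of 0.91, and 8 and none after centring. FOS read 1.36, 1.01 and 1.77 against -0.91, -0.98 and -1.19 (difference 2.41, SE 0.23, adjusted p = 0.0016), and its 4 probe sets were all called higher. NR4A1, an orphan nuclear receptor, rose by 1.27 (SE 0.16, adjusted p = 0.00302) and EGR1 by 1.37 (SE 0.20, adjusted p = 0.00411). Without bare replicate 1, 2 or 3 the count higher was 7 each time. IER2 was called lower at -1.23 and stood at 0.12 after centring. NPAS4, an activity-dependent factor of neurons outside the list, read 1.83, 1.47 and 2.56 against -0.80, -0.41 and -0.25 and rose by 2.44 (SE 0.30, adjusted p = 0.00277).

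Of 16 NF-kB targets 11 were called higher and 2 lower, with a median of 0.88 (8 and 2 after centring, median 0.61). CXCL2, a neutrophil chemokine, read 2.62, 2.87 and 1.17 against -0.11, -0.30 and -0.16 (difference 2.41, SE 0.42, adjusted p = 0.00578). NFKB2 rose by 1.17 (SE 0.22, adjusted p = 0.00656), RELB, its partner in the noncanonical pathway, by 1.96, and CCL20 by 1.86. The members that fell were NFKBIA, the inhibitor of the pathway and one of its quickest targets, by 1.83 (SE 0.39, adjusted p = 0.00906), and the subunit gene NFKB1, by 1.54 (SE 0.44, adjusted p = 0.0211). Without conjugate replicate 1 the count higher was 7, and without bare replicate 1, 2 or 3 it was 7, 6 or 6. Of the 16 genes 8 have only dim probe sets, the class that was higher throughout. Over all genes with only dim probe sets 57.2% were called higher.

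Interferon response genes gave 11 of 16 higher and 1 lower, with a median of 0.85, and 7 and 2 after centring. Without bare replicate 1, 2 or 3 the count higher was 3, 4 or 4, and without conjugate replicate 1 it was 5. IFIT3 read 1.60, 1.60 and 0.64 against -0.09, -0.38 and -0.10 (difference 1.47, SE 0.29, adjusted p = 0.00743) and IFI27 rose by 0.98 (SE 0.21, adjusted p = 0.00924). RSAD2, which codes for viperin, fell by 1.61 (SE 0.34, adjusted p = 0.00857). No member has a bright probe set, and 6 have only dim ones.

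Mitosis genes had the lowest median of the 32 lists, both as deposited and after centring. Of 23 G2/M genes 21 were lower and none higher, with a median of -2.31 beside 0.30 over all genes, and after centring 17 were lower, with a median of -1.49. NDC80, a kinetochore subunit, read -4.88, -4.67 and -2.42 against 0.67, 0.62 and 0.49 (difference -4.58, SE 0.60, adjusted p = 0.00311). TTK, the spindle checkpoint kinase, fell by 4.32 (SE 0.54, adjusted p = 0.0028), and DLGAP5, a spindle protein gene, by 4.30 (SE 0.52, adjusted p = 0.00248). CCNB1, the mitotic cyclin, read -2.69, -2.21 and -1.50 against 1.43, 1.32 and 1.45 (difference -3.54, SE 0.30, adjusted p = 0.00141). KIF20A, a cytokinesis kinesin measured by a middle probe set, read -2.11, -2.11 and -1.67 against 1.18, 1.18 and 1.21 and was almost the same after centring, -3.24 beside -3.16. CDC20 at -0.27 and PLK1 at 0.17 were the members not called. With replicate 3 alone 21 of the 23 were again lower. In bulk RNA, fewer cells in mitosis and less RNA of these genes per cell cannot be told apart.

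DLGAP5 is shown for matches to TTTGAA, the motif of the cell cycle homology region, through which the DREAM complex represses mitosis genes outside G2 and M. Capitals mark the 2 matches on either strand in the 250 bases before the start (RefSeq, GRCh38.p14).
DLGAP5, chr14:55191674-55191738, minus strand: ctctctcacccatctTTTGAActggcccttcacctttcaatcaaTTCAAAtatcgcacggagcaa
The letters occurred in 9 of 19 listed genes with a window and in 14.2% of all measured genes. Both uncalled members, CDC20 and PLK1, held them too. A match describes letters and does not show a working site.

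Genes of DNA synthesis fell with those of mitosis. Of 28 G1/S and replication genes 19 were lower and 1 higher, with a median of -1.24 (17 and 2 after centring, median -0.57). FEN1, the flap nuclease of lagging-strand synthesis, read -3.88, -4.54 and -2.63 against 0.38, 0.40 and 0.19 (difference -4.01, SE 0.44, adjusted p = 0.00213). CCNE2, the S phase cyclin, fell by 2.48 (SE 0.24, adjusted p = 0.00174), and POLA1, the priming polymerase gene, fell by 2.27 (SE 0.24, adjusted p = 0.00205). MCM5 was the exception and rose by 0.72 (SE 0.18, adjusted p = 0.0129), while MCM4, MCM3, MCM6, MCM7 and MCM2 of the same helicase fell by 2.95, 1.68, 1.42, 1.28 and 1.10. Of these, MCM3, MCM7 and MCM2 were not called after centring (-0.33, -0.29 and 0.25). MCM5 was read by 1 middle probe set.

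DNA repair genes gave 8 of 12 lower and 2 higher, with a median of -1.74 (7 and 2 after centring). RAD50, of the break-sensing complex, fell by 2.48 (SE 0.24, adjusted p = 0.00165) and BRCA1 by 1.79 (SE 0.16, adjusted p = 0.00156). The mismatch repair gene MSH6 fell by 3.26. XRCC3 rose by 0.98 (SE 0.17, adjusted p = 0.00592) and XRCC1 by 0.64 (SE 0.18, adjusted p = 0.0197).

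A small set of genes placed the conjugate with untreated cells and the bare particle apart. Of the 3611 genes called and at least 2-fold lower with the conjugate, all 3 untreated arrays lay nearer the bare mean in 2987 (82.7%) and nearer the conjugate mean in 32. Of the 2718 at least 2-fold higher, the counts were 2277 (83.8%) and 5. The genes of the small sets were picked after their values were seen. They include MT1X, PIR, NQO1, DDIT4, CTH and ASNS among those lower and HSPH1 among those higher. For them the contrast describes the bare arrays as much as the conjugate arrays.

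Metallothioneins, which bind zinc, copper and also gold, showed this for some members. MT1X read -2.53, -3.23 and -2.05 with the conjugate, 0.48, 0.44 and 0.00 with the bare particle and -2.74, -2.69 and -3.81 untreated (conjugate minus bare -2.91, SE 0.31, adjusted p = 0.00206). MT1F read -1.03, -0.79 and -1.17 with the conjugate, 0.44, 0.15 and -0.30 with the bare particle and -2.35, -2.26 and -2.60 untreated, so the conjugate lay between (difference -1.10, SE 0.23, adjusted p = 0.00906). MT1G rose by 1.13 (SE 0.21, adjusted p = 0.00652), MT1E by 1.26 and MT1M by 0.99 (SE 0.28, adjusted p = 0.0193). After centring MT1F at -0.47 (adjusted p = 0.241) and MT1M at 0.67 (adjusted p = 0.0628) were not called, and MT2A at -0.04 was not called as deposited either. Metallothionein copies are alike in sequence, so probe sets may not separate them. Of the 12 metal response genes 4 were higher and 3 lower, beside 37.0% and 27.0% of all genes, and 2 and 1 after centring. The counts were 2 and 2 without conjugate replicate 1, and without any 1 bare array 1 and 2.

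The MT1X promoter is shown for its matches to the metal response element, the site of the zinc sensor MTF1. The search took TGCACNC and TGCGCNC on either strand, and capitals mark 4 matches (RefSeq, GRCh38.p14).
MT1X, chr16:56682305-56682438, plus strand: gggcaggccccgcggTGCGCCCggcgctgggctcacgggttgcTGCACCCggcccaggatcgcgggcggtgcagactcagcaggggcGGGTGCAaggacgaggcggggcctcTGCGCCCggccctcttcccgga
At least 1 match occurred in 4 of 7 listed genes with a window and in 35.6% of all measured genes. Such a match does not show binding.

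NRF2 is the sensor of oxidants and reactive chemicals that switches on glutathione and quinone enzymes. Of its 16 targets 11 were lower and 1 higher, with a median of -0.99 (9 and 1 after centring, median -0.74). Without bare replicate 1 the count lower was 7, and after leaving out conjugate replicate 1 or 3 or bare replicate 2 or 3 none was higher. PIR, an iron-binding NRF2 target, read -2.42, -2.65 and -2.48 against 0.40, 0.16 and 0.00 and -2.38, -2.80 and -2.98 untreated (difference -2.71, SE 0.18, adjusted p = 0.00108). NQO1, the quinone reductase, read -1.31, -1.41 and -2.25 against 0.93, 0.01 and 0.00 and -1.75, -2.01 and -2.18 untreated (difference -1.97, SE 0.35, adjusted p = 0.00602). GCLM, of glutathione synthesis, read -2.63, -2.54 and -1.45 against 0.14, 0.09 and 0.00 and fell by 2.28 (SE 0.32, adjusted p = 0.00372), here to below the untreated values of -1.26, -0.91 and -0.53. HMOX1, the heme oxygenase, went the other way. It read -0.17, -0.64 and 0.20 against -0.62, -1.65 and -2.32 and -2.63, -2.60 and -2.80 untreated, a rise of 1.33 (SE 0.43, adjusted p = 0.0315) that was not called after centring (1.18, adjusted p = 0.0567), and its groups overlapped.

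ATF4 turns on amino acid synthesis and transport when protein synthesis or the endoplasmic reticulum is under stress. Of 21 ATF4 and unfolded protein response genes 14 were lower and 3 higher, with a median of -1.03 (10 and 4 after centring). Without bare replicate 2 or 3 the count lower was 9. INHBE, a hormone subunit gene induced by ATF4, had the largest fall of all genes called with the groups apart. It read -4.08, -4.31 and -3.25 against 0.82, 0.57 and 1.08 and -0.87, -0.71 and -0.86 untreated (difference -4.70, SE 0.30, adjusted p = 0.00103), so the bare arrays lay above and the conjugate arrays below untreated cells. DDIT4, an inhibitor of mTOR, fell by 2.25 and DDIT3, which codes for CHOP, by 1.51, and both stayed called after centring. PPP1R15A, the phosphatase subunit that restores translation, rose by 1.32 (SE 0.16, adjusted p = 0.00273) and ERN1, the IRE1 sensor, by 1.08 (SE 0.18, adjusted p = 0.00502). ATF4 itself was called lower at -0.82 and not called after centring (0.53, adjusted p = 0.0548).

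Housekeeping complexes were lower as deposited and split after centring within brightness classes. Over all genes with only bright probe sets 66.3% were called lower and 3.8% higher, and after centring 28.3% and 32.2%. All 19 ribosomal protein genes have bright probe sets. Of these, 3 were called lower and none higher, and after centring 14 were higher and none lower, so their direction turned. Without conjugate replicate 3 the count lower was 15, and without any 1 of the other arrays none was called. RPS14 at -1.10 became 0.25 and RPL19 at -0.84 became 0.51 after centring. Quantile normalization did not turn the list, with 6 of the 19 genes lower, none higher and a median of -0.28. There RPS14 stood at -1.01 and RPL19 at -0.71, so the direction rests on the scaling. Of 18 oxidative phosphorylation genes 12 were lower, and after centring 5 were higher and 3 lower. The count lower was 4 without conjugate replicate 1, and without bare replicate 1, 2 or 3 it was 7, 6 or 6. NDUFS1, of complex I, fell by 2.31 (SE 0.28, adjusted p = 0.00246) and stayed called at -1.24, while SDHC fell by 1.54 and was not called after centring.

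Proteasome genes kept their direction. Of 20, 19 were lower as deposited and 10 after centring, and none was higher in either fit. The count lower was 7 without conjugate replicate 1, and without bare replicate 1, 2 or 3 it was 10, 12 or 12. PSMD12, of the regulatory lid, read -3.02, -3.72 and -1.67 against 0.03, -0.05 and 0.01 (difference -2.80, SE 0.47, adjusted p = 0.00538), and PSMC2, of its ATPase ring, fell by 2.11 (SE 0.37, adjusted p = 0.00602). Of 19 splicing factor genes 13 were lower (7 lower and 2 higher after centring), with SRSF5 lower by a difference of -1.49 and HNRNPM by -1.37. The probe sets of both genes disagreed, with 2 called higher and 8 lower in SRSF5 and 1 higher and 2 lower in HNRNPM. HNRNPM stood at -0.02 after centring. The count lower was 5 without conjugate replicate 1, and without bare replicate 1, 2 or 3 it was 6, 7 or 6. Of 18 MYC and ribosome biogenesis genes 11 were lower (3 lower and 1 higher after centring). Without conjugate replicate 1 or 2 the count lower was 4 or 7, and without bare replicate 1, 2 or 3 it was 4, 6 or 6. POLR1B, of RNA polymerase I, fell by 2.25 (SE 0.21, adjusted p = 0.0016) and stayed at -2.34, and RRS1 fell by 1.70 as deposited only.

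Of 20 hypoxia and glycolysis genes 12 were lower and 1 higher (8 and 3 after centring), with a median of -0.85 that became -0.01. HIF1A read -1.88, -1.89 and -1.17 against 0.25, 0.41 and 0.40 (difference -2.0, SE 0.23, adjusted p = 0.00238), and EGLN3, its oxygen-sensing hydroxylase, fell by 1.68 (SE 0.18, adjusted p = 0.002). NDRG1 was called higher at 0.48 and not after centring. Among 12 cholesterol synthesis genes 3 were higher and 6 lower (2 and 5 after centring). SC5D was down by a difference of -2.04 and SQLE by -1.45. The mevalonate kinase gene MVK was up by 0.79 and SREBF2 by 0.66. SREBF2 was not called after centring (0.57, adjusted p = 0.0523). The counts were 1 and 4 without conjugate replicate 1, and without bare replicate 1, 2 or 3 they were 0 and 5, 1 and 4 or 0 and 4.

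Uptake genes, of interest for a particle that cells must take in, did not share a direction. Of 21 endocytosis genes 8 were higher and 7 lower, with a median of 0.13 (9 and 5 after centring). As deposited these counts were close to the shares over all genes, 37.0% higher and 27.0% lower. The counts were 4 and 3 without conjugate replicate 1, and without bare replicate 1, 2 or 3 they were 3 and 3, 4 and 3 or 2 and 3. The clathrin heavy chain gene CLTC fell by 2.16 (SE 0.39, adjusted p = 0.00648) and the adaptor gene AP2B1 by 2.18 (SE 0.39, adjusted p = 0.00609). The adaptor gene AP2A1 rose by 0.82 (SE 0.16, adjusted p = 0.0073), as did SCARB1, a scavenger receptor (SE 0.18, adjusted p = 0.00976). CLTC had 4 probe sets called lower and 1 higher. Of 22 lysosome and autophagy genes 4 were higher and 9 lower (6 and 6 after centring). The counts were 3 and 4 without conjugate replicate 1, and without bare replicate 1, 2 or 3 they were 1 and 3, 1 and 3 or 2 and 3. ULK1, which starts autophagy, rose by 1.41 (SE 0.23, adjusted p = 0.00535) and CTSD by 0.75, while the proton pump gene ATP6V1A fell by 2.27 (SE 0.37, adjusted p = 0.00501) and MAP1LC3B by 1.44.

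Genes tied to retinoblastoma and to small RNAs followed the same mixture. Of 17 retinoblastoma genes 3 were higher and 9 lower (3 and 7 after centring), and without any 1 bare array 1 and 6. KIF14, a mitotic kinesin gene often gained in this tumour, fell by 1.93 (SE 0.21, adjusted p = 0.00205) and E2F3 by 1.73 (SE 0.22, adjusted p = 0.00283). NGFR, the p75 receptor, rose by 1.31 (SE 0.20, adjusted p = 0.0045) and RBL1 by 0.76 (SE 0.21, adjusted p = 0.0176), a call lost after centring (0.36, adjusted p = 0.0650). Of 14 microRNA processing genes 3 were higher and 7 lower (1 and 5 after centring). Without conjugate replicate 1 or 2 the counts were 1 and 5, and without bare replicate 1, 2 or 3 they were 0 and 5, 0 and 3 or 0 and 4. DROSHA, the nuclear microRNA nuclease, read -2.58, -3.23 and -1.06 against 0.26, 0.31 and 0.19 (difference -2.54, SE 0.50, adjusted p = 0.00743). TARBP2, a DICER partner, rose by 0.74 (SE 0.20, adjusted p = 0.016). LIN28B at -1.42 and LIN28A at 0.68 were called as deposited and not after centring.

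Of the photoreceptor markers, which retinoblastoma cells are known to carry, CRX, RBP3, PDE6H, NRL and NR2E3 had bright probe sets. Of 25 photoreceptor markers 10 were lower and 2 higher (11 and 2 after centring), with a median of -0.11, and 7 were higher without conjugate replicate 3 and 1 without conjugate replicate 1 or any 1 bare array. RBP3, the retinoid carrier of the photoreceptor matrix, read -2.78, -3.66 and -1.11 against bare values of up to 1.25 and fell by 3.62, and CRX, the photoreceptor homeobox gene, fell by 1.88. IMPG2, a matrix proteoglycan gene, read -1.50, -1.76 and -1.19 against 1.28, 1.29 and 1.08 (difference -2.70, SE 0.20, adjusted p = 0.00112). PDE6G, of the phosphodiesterase, rose by 1.26 (SE 0.25, adjusted p = 0.00774). Of 10 retinal progenitor markers 5 were higher and 4 lower (6 and 4 after centring), with a median of -0.08 that became 0.53. Without bare replicate 1 or 2 the counts as deposited were 2 and 3. Among these markers were HES1, a Notch target, up by 1.30 (SE 0.19, adjusted p = 0.00399) and RAX down by a difference of -1.97 (SE 0.31, adjusted p = 0.00466). After centring HES1 stood at 1.41 and RAX at -0.62.

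Markers of other cell types were higher more often than lower, and so were dim probe sets in general. With dim probe sets left out, 8 of 8 pigment epithelium, 5 of 5 blood cell and 4 of 7 fibroblast markers were called higher and none lower. That fit called 7 of 13 inner retinal neuron markers higher and 3 lower, and 3 of 7 Mueller glia markers higher and 2 lower. Over all genes it called 4054 of 13960 higher. Of 12 fibroblast markers 8 were higher and none lower, with array medians of 0.21 to 0.82 with the conjugate and -0.11 to -0.10 with the bare particle, and after centring 2 were higher. Without conjugate replicate 1 the count was 4, and without bare replicate 1, 2 or 3 it was 4, 2 or 2. None of the 12 has a bright probe set. Of 10 blood cell markers 6 were higher (5 after centring), with medians of 0.42 to 0.98 against -0.13 to -0.07, and of 9 pigment epithelium markers 7 were higher (3 after centring). The pigment epithelium count was 1 without conjugate replicate 1, and without bare replicate 1, 2 or 3 it was 0, 1 or 1. PDGFRB rose by 1.32 (SE 0.22, adjusted p = 0.00541), HBB by 1.14 (SE 0.24, adjusted p = 0.00853) and TTR by 1.19 (SE 0.29, adjusted p = 0.0126). Of 18 inner retinal neuron markers 11 were higher and 3 lower (7 and 3 after centring). The count higher was 6 without conjugate replicate 1 and 5, 6 or 6 without bare replicate 1, 2 or 3. Among them were LHX1 up by 0.99 (SE 0.18, adjusted p = 0.00632) and POU4F2 down by a difference of -1.48 (SE 0.18, adjusted p = 0.00244). Of 10 Mueller glia markers 5 were higher and 2 lower (4 and 1 after centring), with a median of 0.56 that became 0.14. As deposited, without conjugate replicate 1 or 3 the count higher was 3 or 8, and without bare replicate 1, 2 or 3 it was 2, 2 or 1. SOX9 differed by 1.05 (SE 0.18, adjusted p = 0.00566) and VIM by -2.23 (SE 0.35, adjusted p = 0.00473). After centring these 2 differences were 0.48 and -0.88.

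**Figure D5:**
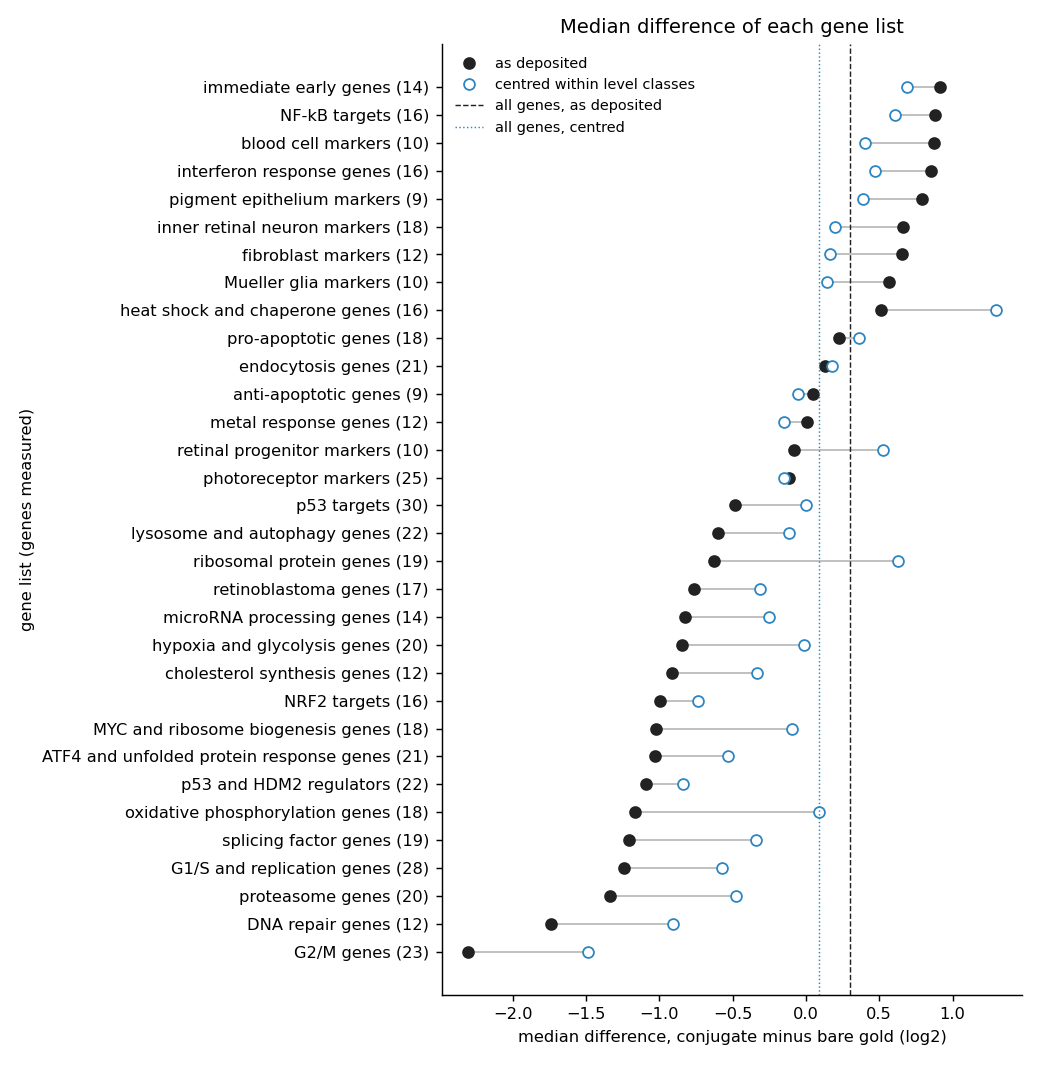
Median difference, conjugate minus bare gold (log2), of each of the 32 gene lists with the number of genes measured, as deposited (filled) and after centring within brightness classes (open), with lines at the medians of all genes (0.30 and 0.09). G2/M genes stand lowest in both, heat shock genes highest after centring, and ribosomal protein genes cross from -0.63 to 0.63.

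The remaining large rises included 3 noncoding transcripts. ZNF566-AS1 read 6.13, 6.58 and 3.06 against -0.25, -0.15 and -0.26 (difference 5.48, SE 0.83, adjusted p = 0.0044). LINC02447 rose by 3.03 (SE 0.34, adjusted p = 0.00227) and ZBTB7C-AS2 by 2.90 (SE 0.51, adjusted p = 0.00599). The antisense genes among them are named by RefSeq symbol, or by the platform's where RefSeq has none. The strand their probes read was not checked. PCP4, a calmodulin-binding neuronal gene, rose by 2.97 (SE 0.36, adjusted p = 0.00256) and the receptor gene GPR151 by 2.55 (SE 0.43, adjusted p = 0.00548). In ZNF566-AS1, LINC02447, ZBTB7C-AS2 and GPR151 conjugate replicate 3 was the lowest of its group, and all of the 5 stayed called after centring.

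Other large falls were in PDCD7, a component of the minor spliceosome, which read -4.24, -6.00 and -2.88 against 0.03, 0.11 and 0.00 (difference -4.42, SE 0.68, adjusted p = 0.00458), and in FSTL5, which fell by 4.26 (SE 0.75, adjusted p = 0.00598). LACTB2, a mitochondrial endoribonuclease gene, fell by 4.23 (SE 0.56, adjusted p = 0.00324), the retinal factor gene DACH1 by 4.22 (SE 0.59, adjusted p = 0.00366) and the centrosome gene CETN3 by 4.01 (SE 0.68, adjusted p = 0.0055). All 5 were measured by bright probe sets, where the class as a whole stood at -1.35, and after centring their differences were -3.07, -2.91, -2.87, -2.87 and -2.66. Each remained called.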

How the data were processed

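RNA from 9 arrays was measured, and the 6 of the conjugate and bare particle groups were compared. The deposited values are log2 and centred on a reference level per probe set, as inferred from the numbers, and no source used here gives the summarizing tool or its normalization. A probe set's brightness class was recovered from the step size of its stored numbers (dim, baseline 2 to 4; middle, 4 to 8; bright, 8 to 16). Probe sets were assigned to genes by the platform annotation. Each gene took the RefSeq symbol of its gene identifier, or the platform's symbol where RefSeq has none. Of 49293 probe sets (102 control rows left out), 44988 had 1 symbol, 1832 several and 2473 none, and values of a gene's single-symbol probe sets were averaged. The 2-sided moderated test was that of limma 3.58.1 (lmFit, eBayes) under R 4.3.3, checked on simulated data, and files were read with data.table (version 1.17.8). The number of arrays limits the precision.

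Named genes were MDM2, MDM4 and CDKN1A, the 10 largest rises and falls among called genes with groups apart, and per list up to 2 called members a direction (1 for markers) of smallest adjusted p. Any other gene with values was chosen with those values in view. The members and lists were chosen with earlier results of these data known. 1 gene of the naming rule is not reported here. Alternatives were other scalings, fits, probe sets and arrays left out. Promoter windows are RefSeq's.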

Additional observations from a re-analysis of the deposited data

How the results depend on the processing

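Against 11595 calls (6701 higher, 4894 lower), all 9 arrays in the fit gave 7833 and 5281, quantile normalization 6213 and 5200, median centring 5179 and 5293, separate weights per group 5868 and 4838. Counts that moved by over 1.5 times were 4054 higher without dim probe sets, 6329 in all and 2718 higher with a 2-fold limit, and 26706, 14017 and 12689 over single probe sets, where more features were tested. Leaving out 1 array gave 5682 to 14992 calls, 2634 to 8742 higher and 3001 to 6250 lower. Same-numbered arrays did not deviate together (r = -0.06, 0.10 and 0.01), and a replicate block gave 5987 higher and 4786 lower.

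MDM2 stood at 0.43 under quantile normalization. Centring within brightness classes turned MDM4 to 0.73, CDKN1A to 1.34, IER2 to 0.12, RPS14 to 0.25 and RPL19 to 0.51. With conjugate replicate 3 alone (chosen after seeing the data) MDM4 was 0.53 and CDKN1A 0.48, and with centring as well MDM4 0.82, CDKN1A 0.94, IER2 0.21, RPS14 0.21, RPL19 0.23 and LIN28A -0.085. Without dim probe sets BCL2L2 was -0.98 and NDRG1 -0.19, and without probe sets that match several transcripts LIN28B 0.29. The cause was not tested.

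Background probe sets were 0.44 after median centring. Under quantile normalization 18S was -1.92, 28S 0.99, actin 3 prime minus 5 prime 0.55, GAPDH 0.44 and r of pairs 1 and 2 0.855. With replicate 3 alone hybridization controls were 1.45, poly-A 0.89, background 0.48, actin 0.37 and GAPDH 0.46. Leaving out 1 array gave 0.31 to 0.44 for actin. Values carry no absolute level, so dim probe sets could not be judged against background.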
